A study of Bos taurus with 10 samples.

Results

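The genes described here encode products that the bovine trophoblast secretes before implantation, namely interferon tau, the trophoblast Kunitz domain proteins (TKDP) and SSLP1. They were followed in day 7 embryos flushed from superovulated cows that had received senktide, a synthetic tachykinin peptide that activates the neurokinin-3 receptor. A probe was taken where the array file named it SSLP1 or gave it a symbol starting with TKDP or IFNT, or where its description contained interferon tau or trophoblast Kunitz. This took 24 of the 43653 probes on the array, which stand for 8 genes and a transcript without a symbol among 25427 distinct names. SSLP1 had 3 probes, interferon tau 5 (IFNT3 2, IFN-tau-c1 2 and 1 for the unnamed transcript) and TKDP1 to TKDP5 16. Another 3 probes described as interferon-tau-like, with hyphens, fell outside the rule and were well above background on 0 of 10 arrays.

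The vehicle group held 2 embryo samples, whose label gives DMSO as the treatment. The senktide groups held 4 samples each, from infusions at 30 and 300 nmol/min that ran for 2 h from 48 h after superovulation began. All cows, vehicle included, were superovulated and were inseminated with frozen and thawed semen at 108 and 120 h, and embryos were taken 7 days after the first insemination. Total RNA was labelled with Cy3 and measured on 1-colour Agilent bovine arrays, 1 array per sample. The labels state neither the number of embryos in a sample nor whether samples came from separate cows, so p-values rest on a spread that may be no more than technical.

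Interferon tau is the signal by which the ruminant conceptus makes itself known to the mother. The trophectoderm, the outer layer of the blastocyst, secretes it. It binds the type I interferon receptor of the endometrium, which keeps the corpus luteum alive and switches on interferon-stimulated genes. Trophoblast Kunitz domain proteins carry a fold that is known from serine protease inhibitors, and they are made in large amounts by the elongating ruminant trophoblast. SSLP1 is a small secreted protein of the Ly6 family. Interferon tau genes occur in many near-identical copies and the TKDP genes form a family, so a probe may bind transcripts of more than 1 gene.

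Levels are given as log2 signal, that is log2 of the processed signal of the scanner, set relative to the 75th percentile, on the same array, of those 2491 probes that were well above background on every array. Well above background is the scanner software's own flag, and detected below means flagged so. A weaker flag of the software, a signal positive and significant against background, is named where it is used. Between 7.17% and 19.6% of spots on an array were well above background (median 12.3%), with 7.17% and 9.44% on the vehicle arrays. The share was 18.3% to 19.6% on slide 3, which held replicates 3 and 4 of both senktide groups. On each of slides 1 and 2 lay 1 array per group. Trophectoderm markers were present: 5 of 8, KRT8, KRT18, GATA2, GATA3 and TFAP2C, were detected on all 10 arrays and CDX2 and ELF5 on 0. Of the uterine epithelium markers, OVGP1, PAEP and SERPINA14 were on 0 arrays and MUC1 on 1. CLU was on 7 by its brightest probe and on 8 by any of its probes. Of 4 inner cell mass markers, SOX2 was on 10 arrays, POU5F1 on 4, SALL4 on 1 and NANOG on 0. Of 7 leukocyte markers, LYZ was detected on all 10 arrays, PTPRC on 5 and ITGB2 on 4. HBA was the detected blood gene among 3, on 4 arrays. COL1A2 and DCN were the detected stromal genes among 5. Fewer cells of a type and less RNA per cell cannot be told apart in such samples.

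The probe sequences carry much of what follows, so those of the probes that gave signal are shown first, each 5′ to 3′ on the transcript's strand with coordinates of the bovine build Btau_3.1 from the array files. No gene models of that build were used here, so exon and UTR positions are not given, and probes that may lie in a UTR are shown only in part. The first pair are SSLP1 probes that overlap by 53 bases at chr29:30637835-30637894 and chr29:30637828-30637887, both on the plus strand. Capitals mark bases that differ between them.
SSLP1 A_73_P152311, bases 24 to 53: TgctcagtcGtgtccaactctttgcgaccc
SSLP1 A_73_P070506, bases 31 to 60: GgctcagtcAtgtccaactctttgcgaccc
Counted from 1 at the 5′ end of A_73_P152311, the overlap held 3 differences, A7G, T24G and G33A, of which the last 2 lie in the stretch shown. The remaining SSLP1 probe lies downstream of both at chr29:30638919-30638978 and shared no run of 20 bases or more with any other probe.
SSLP1 A_73_P035871, bases 31 to 60: cactctcaataaactctttttcttgtttgc

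For interferon tau, the probe that gave signal and the 2 that bear on how specific it was are shown. The IFNT3 probe A_73_P429736 lies at chr8:23637632-23637691 and A_73_P032771 at chr8:23637879-23637938, both on the minus strand, so the former is nearer the 3′ end of the transcript. The IFN-tau-c1 probe A_73_P040681 lies at chr8:24267841-24267900 on the plus strand. Capitals mark bases that differ between the last 2 sequences.
IFNT3 A_73_P429736, bases 1 to 30: gcctgccctgatgttatctgttgttgattt
IFNT3 A_73_P032771, whole: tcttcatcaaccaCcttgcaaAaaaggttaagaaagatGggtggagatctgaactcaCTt
IFN-tau-c1 A_73_P040681, whole: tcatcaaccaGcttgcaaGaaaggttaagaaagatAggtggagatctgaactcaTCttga
Over 57 aligned bases the IFNT3 and IFN-tau-c1 probes differed at 5, which are C14G, A22G, G39A, C58T and T59C counted from the 5′ end of A_73_P032771. The bright A_73_P429736 shared no run of 20 bases or more with another probe. The files list 2 other interferon tau transcripts beside that of IFNT3 as its targets, so its signal cannot be given to 1 gene. Which copies contributed was not tested.

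Most of the member probes were never well above background at day 7. At least 1 such reading was had by 5 of the 8 genes (SSLP1, IFNT3, TKDP1, TKDP3 and TKDP4), and TKDP1, TKDP3 and TKDP4 had 1 each. The share with such a reading was 32.5% for the distinct names on the array and 49.9% for those with 2 or more probes. Of the 24 probes 17 (70.8%) were well above background on no array, 3 were so on 1 array and 4 on at least 2 arrays. Over the whole array the shares were 74.4% on no array, 5.15% on 1 and 20.5% on at least 2, so the set was close to the array as a whole. The readings were spread unevenly over families and over the probes within them. SSLP1 gave 17 of 30 readings well above background, counting a probe on an array as 1 reading. Of these, 10 came from the probe A_73_P152311, and 3 and 4 from the other 2 probes. Interferon tau gave 9 of 50, all from 1 probe, and TKDP gave 3 of 160. By the weaker flag these were 26 of 30, 28 of 50 and 65 of 160, and 119 of the 240 member readings (49.6%) against 49.4% over the whole array. Members detected on at least 1 array of a group numbered 3 with vehicle, 5 at 30 nmol/min and 5 at 300 nmol/min. Per array the number was 1 and 3 with vehicle, 2, 2, 4 and 3 with 30 nmol/min, and 3, 4, 3 and 4 with 300 nmol/min. Vehicle replicate 1, with the fewest members, was also the array with the smallest share of detected spots. The part of that share in the group counts was not tested, and 2 vehicle arrays give fewer chances of detection than 4.

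**Figure D1:**
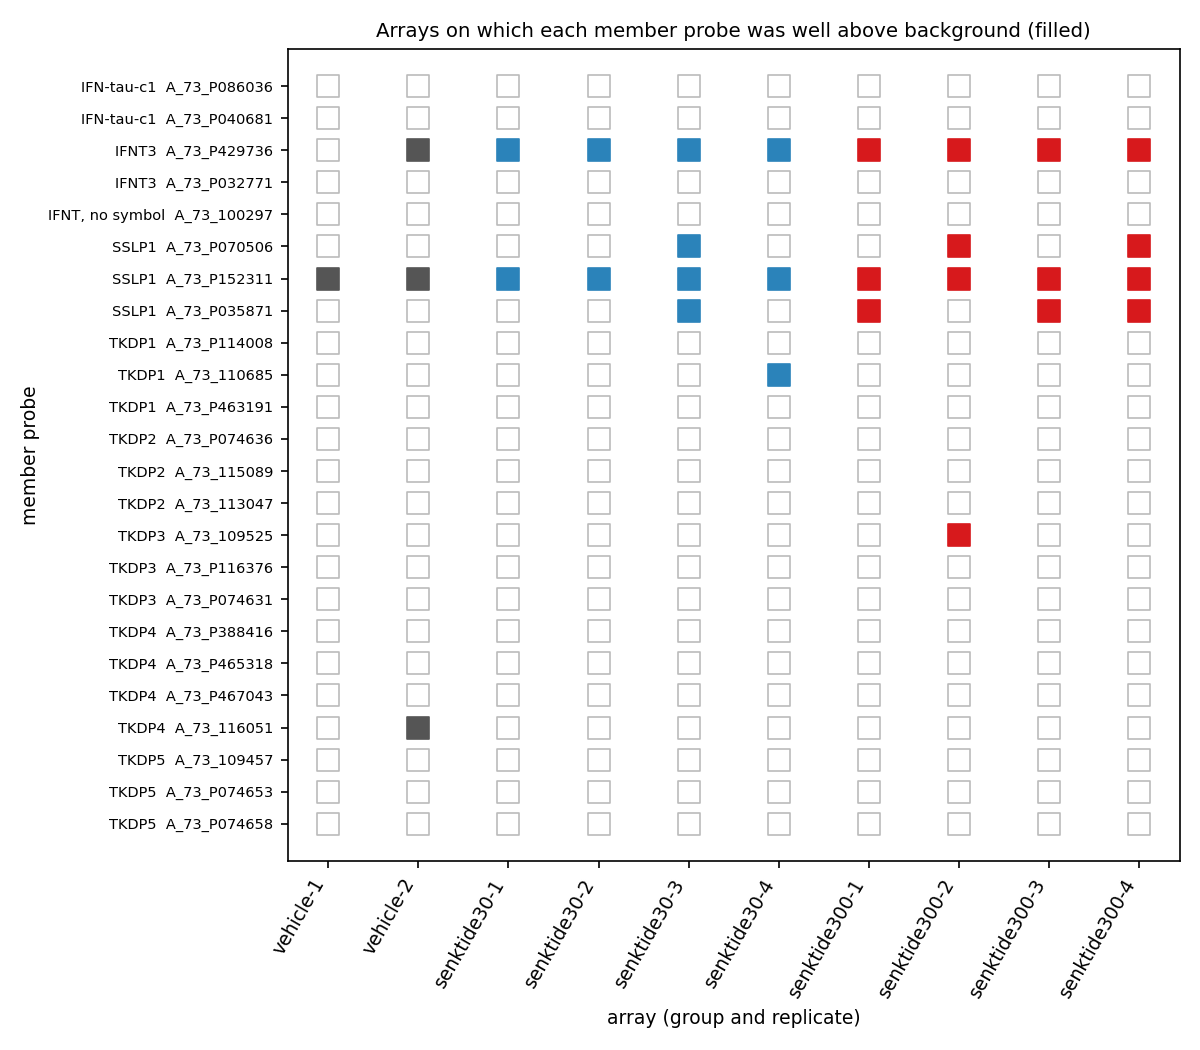
Each row is 1 of the 24 member probes and each column 1 of the 10 arrays, and a filled square marks a reading well above background (grey for vehicle, blue for 30 and red for 300 nmol/min senktide). Filled squares gather in 1 SSLP1 probe on 10 arrays and 1 IFNT3 probe on 9, while the 16 TKDP probes hold 3.

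None of the 4 members that could be tested changed between groups in the limma fit at an adjusted p of 0.05. Against vehicle, 0 of 8938 tested probes (0.0%) were called at 30 nmol/min and 1 (0.0112%) at 300 nmol/min. Between the doses 0 (0.0%) were called, and 3 (0.0336%) with both doses pooled against vehicle. At an unadjusted p under 0.05 the limma fit had 1006 (11.3%), 1236 (13.8%), 268 (3.0%) and 1327 (14.8%) probes in these comparisons. The counts of calls depended on the vehicle arrays: without vehicle replicate 1 they were 34, 32 and 37 for 30 nmol/min, 300 nmol/min and both doses against vehicle, and without vehicle replicate 2 they were 36, 50 and 61. In the fit blocked by replicate number the counts were 0 at 300 nmol/min, 1 between the doses and 0 for both doses. The 1 call at 300 nmol/min was lost without 30 nmol/min replicate 1, 3 or 4, or any array of 300 nmol/min. The 3 calls for both doses fell to 1 without 30 nmol/min replicate 1 or 2, and to 0 without 30 nmol/min replicate 4 or 300 nmol/min replicate 1 or 4. All comparisons with vehicle share those 2 arrays.

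SSLP1 was the member detected on every array, by the probe A_73_P152311. Its log2 signal was −0.70 and −0.51 on the vehicle arrays. With 30 nmol/min it read −1.26, −1.32, −1.04 and −1.29, and with 300 nmol/min −1.19, −0.96, −0.92 and −0.99. Both vehicle arrays lay above all 8 senktide arrays, while the doses overlapped each other. Before scaling, its processed signal was 49.1 and 86.7 with vehicle, 74.5, 39.8, 195.2 and 166.3 with 30 nmol/min, and 78.5, 71.0, 222.8 and 241.9 with 300 nmol/min. The unscaled readings thus overlapped between groups, and the 4 highest came from slide 3, where arrays were brighter as a whole.

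Scaled group means were −0.60 ± 0.13 (SD, n = 2) with vehicle, −1.23 ± 0.13 (SD, n = 4) at 30 nmol/min and −1.02 ± 0.12 (SD, n = 4) at 300 nmol/min. The difference from vehicle at 30 nmol/min was −0.63 (SE 0.18, 95% confidence interval −1.04 to −0.21), with an unadjusted p of 0.0072 and a limma adjusted p of 0.309. At 300 nmol/min it was −0.41 (SE 0.18), with an unadjusted p of 0.0494 and a limma adjusted p of 0.362. Vehicle arrays lay wholly above the dose group for 11.9% of all tested probes at 30 nmol/min and 16.3% at 300 nmol/min, and above all 8 senktide arrays for 7.04%. The doses differed by 0.21 (300 minus 30 nmol/min, SE 0.15, 95% confidence interval −0.13 to 0.55, limma adjusted p of 0.999). Within slide 1 the 30 and 300 nmol/min arrays lay −0.57 and −0.50 from the vehicle array, and within slide 2 −0.81 and −0.45. The 300 nmol/min level lay above the 30 nmol/min level by 0.07, 0.36 and 0.21 on slides 1, 2 and 3.

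The direction of the SSLP1 difference depended on how arrays were scaled. With the 75th percentile taken over all probes, most of which carried no signal, the difference was 0.43 (limma adjusted p of 0.678) at 30 nmol/min and 0.76 (0.452) at 300 nmol/min. With the median over all probes it was 0.70 (0.531) and 1.01 (0.368), and with the authors' deposited values, which are scaled by the all-probe percentile, 0.43 (0.678) and 0.76 (0.452). Under quantile normalization it kept the negative sign. Which of these scalings is nearer to the RNA content of the embryos was not tested.

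**Figure D2:**
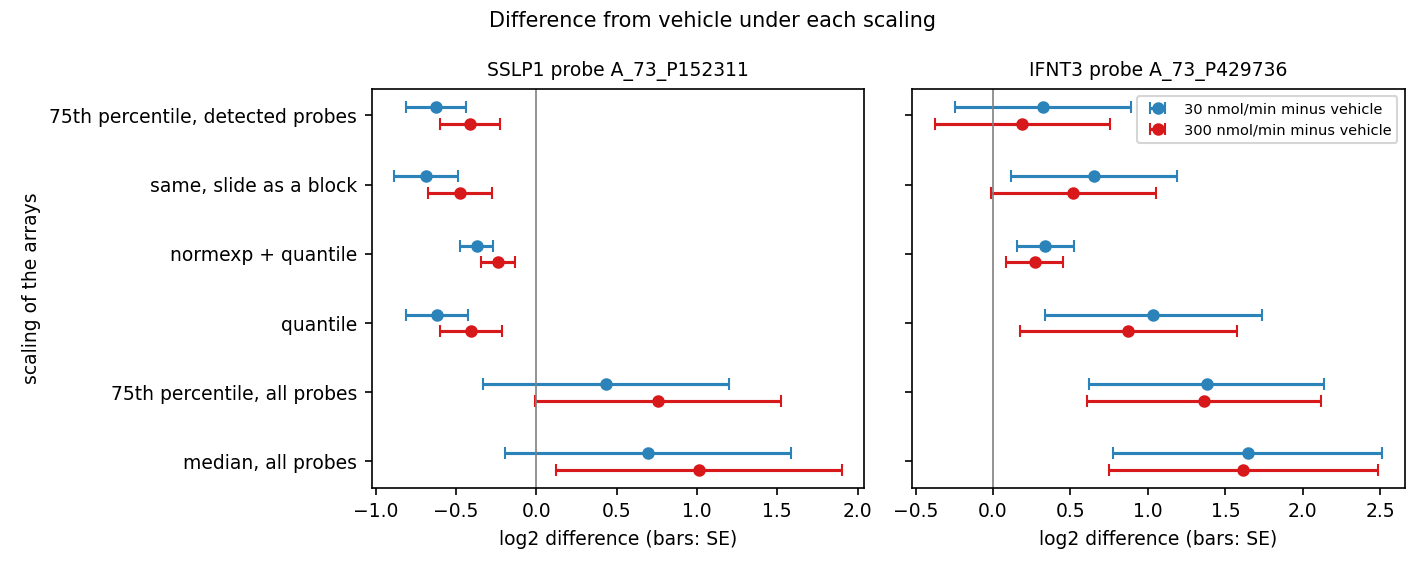
Log2 difference from vehicle (points, with SE as bars) for the SSLP1 probe A_73_P152311 and the IFNT3 probe A_73_P429736 under 6 settings, at 30 (blue) and 300 (red) nmol/min. The SSLP1 points lie below 0 in the upper 4 settings and above 0 where the scale was taken over all probes, at 0.43 and 0.76 for the 75th percentile; the IFNT3 points lie above 0 throughout.

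The other SSLP1 probes were dim. A_73_P070506, which overlaps the bright probe, was well above background on 3 arrays, 30 nmol/min replicate 3 and 300 nmol/min replicates 2 and 4. Its log2 signal ranged from −6.61 to −2.84 over the 10 arrays, with a processed signal between 3.93 and 44.1. A_73_P035871 was well above background on 4 arrays, 30 nmol/min replicate 3 and 300 nmol/min replicates 1, 3 and 4, with a log2 signal from −5.43 to −3.08. Neither was well above background on a vehicle array. The level there is therefore only a bound, and it lay above the senktide means, so no fold against vehicle can be given.

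Between the doses, A_73_P070506 differed by 0.89 (300 minus 30 nmol/min, SE 0.70, limma adjusted p of 0.999) and A_73_P035871 by −0.16 (SE 0.51, limma adjusted p of 0.999). The sign of the latter turned without 30 nmol/min replicate 2, to 0.17, and without 300 nmol/min replicate 4, to 0.07. On A_73_P070506 the vehicle readings, −3.80 and −3.63, lay above all 4 readings at 30 nmol/min, as on the bright probe, and between those at 300 nmol/min. On A_73_P035871 the vehicle readings, −4.66 and −5.00, lay among those at 30 nmol/min. Against 300 nmol/min, −4.66 lay among the readings and −5.00 below all 4. The vehicle readings of both dim probes were not well above background.

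**Figure D3:**
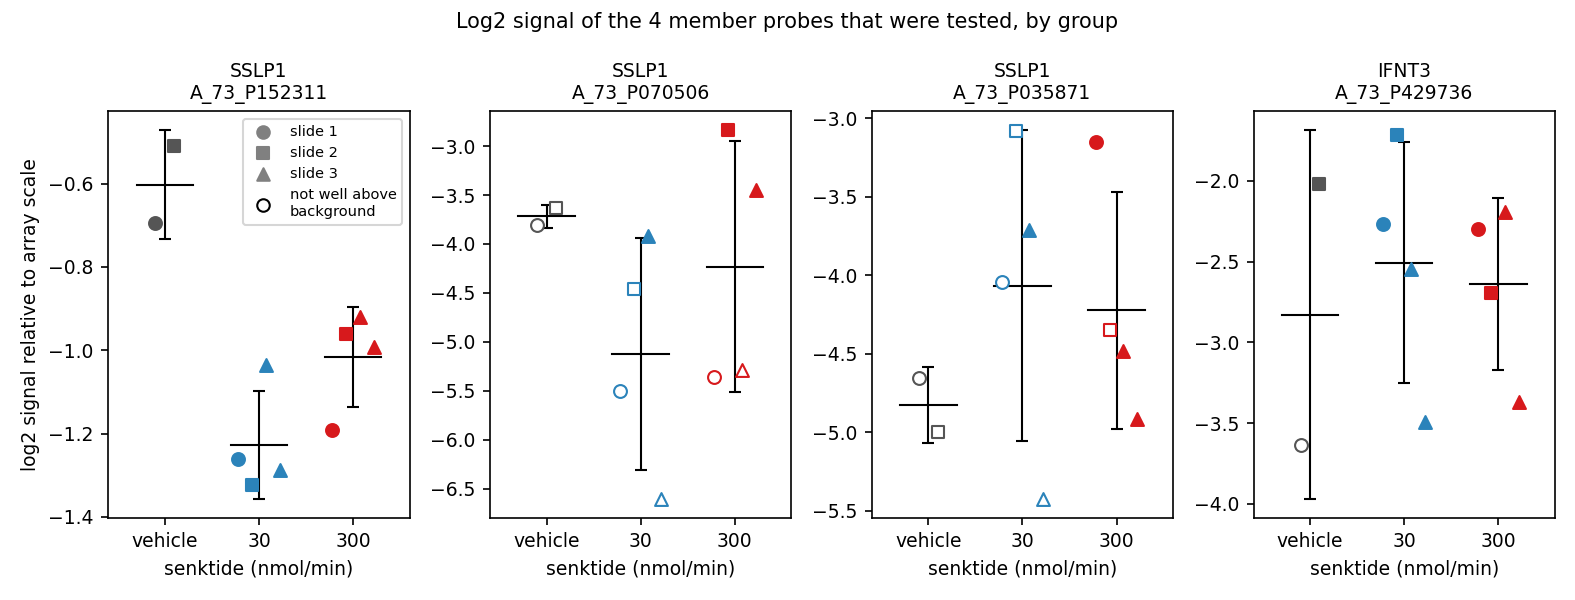
Log2 signal of the 4 tested member probes on each array, by group, with the group mean as a line and the SD as bars. Open symbols were not well above background and shapes give the slide. Each panel has its own scale. On A_73_P152311 the vehicle arrays (−0.70 and −0.51) lie above all senktide arrays, while on A_73_P035871 and A_73_P429736 the groups overlap. On A_73_P070506 they lie above the 30 nmol/min arrays but not above all at 300 nmol/min.

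The bright SSLP1 probe also shared sequence with probes of unrelated genes, which is why its letters are shown. A run of 21 bases occurs in a probe of LOC618633, an uncharacterised locus, at chr21:19388380-19388439 (capitals).
LOC618633 A_73_P189087, bases 23 to 52: aagtcGCTCAGTCGTGTCCAACTCTTagca
The gene most like the bright SSLP1 probe over the 10 arrays was ACP3, an acid phosphatase, at chr1:139463117-139463176, with r = 0.912 across arrays. Capitals mark 13 bases that recur on the array.
ACP3 A_73_P465708, bases 9 to 38: ttggagaaggaaaTGGCAACCCACTCaagt
By background knowledge, letters of both kinds belong to short interspersed repeats that are found at very many places in ruminant genomes.

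Probes that hold such letters were mostly detected. The 13 bases ctctttgcgaccc, taken from the bright SSLP1 probe, were searched on both strands of all probes and occurred in 3: 2 SSLP1 probes and, on the opposite strand, a probe of GTF2H5, a subunit of a general transcription factor. The 13 bases tggcaacccactc, taken from the ACP3 probe, occurred in 11, namely 4 probes of ACP3, 1 each of UPK1B, POLH and IFNGR1, 2 transcripts without a symbol and, on the opposite strand, ANKRD39 and STING1. No probe held both, so 14 probes (0.0321% of all) held either. Of these 14, 10 were well above background on all 10 arrays, and all 14 were on at least 2, against 5.71% and 20.5% of all probes. These letters were chosen after the values were seen, and the counts are a description.

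Within LOC618633, the 2 probes that share runs of 21 and 11 bases with the bright SSLP1 probe were well above background on every array, and the 2 that share at most 6 bases were so on none. These are few probes of a single gene, looked at because of its shared run, so the counts are only a description. The SSLP1 probe A_73_P035871, which shared no run of 20 bases or more with any other probe, was on 4 arrays. A_73_P070506, which overlaps the bright probe by 53 bases and holds the same stretch ctctttgcgaccc, was on 3. It does not hold the run of 21 bases whole, because the difference G33A lies within that run. Which transcripts gave the signal of the bright SSLP1 probe was not tested.

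Leaving out SSLP1, 12 probes held either stretch. Their median difference from vehicle was −0.20 at 30 nmol/min (10 lower, 2 higher) and −0.13 at 300 nmol/min (9 lower, 3 higher). All tested probes had medians of −0.11 (5363 lower, 3575 higher) and −0.11 (5305 lower, 3633 higher). Between the doses, 11 of the 12 were higher and 1 lower at 300 nmol/min, with a median of 0.11. All tested probes had a median of −0.01 there (4317 higher, 4621 lower). The 12 include ACP3 probes, and 1 stretch was taken from the ACP3 probe chosen for its likeness to SSLP1. Their directions are therefore partly set by that choice, and the counts are a description. The ACP3 probe had log2 signals of −0.86 and −0.80 with vehicle, −1.36, −1.33, −1.42 and −1.34 with 30 nmol/min, and −1.41, −1.17, −1.12 and −1.15 with 300 nmol/min. Its vehicle arrays lay above all senktide arrays, as for 7.04% of tested probes; ACP3 was chosen for its likeness over these arrays, so this order adds nothing to that of SSLP1. It differed from vehicle by −0.53 (SE 0.17, limma adjusted p of 0.329) and −0.38 (SE 0.17, limma adjusted p of 0.364).

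**Figure D4:**
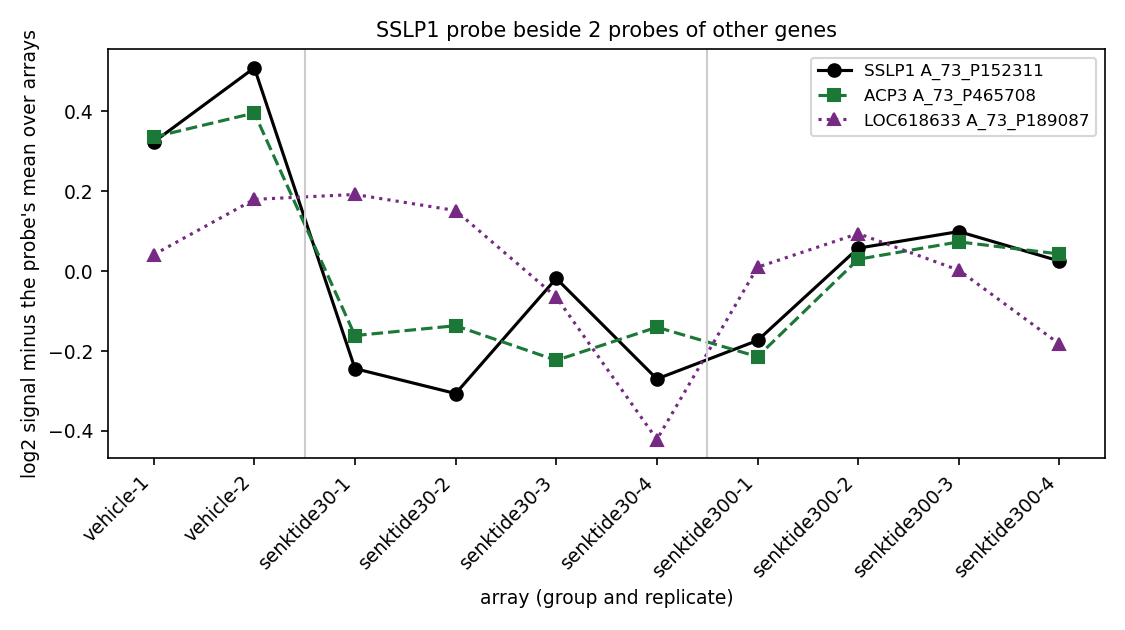
Log2 signal minus each probe's own mean over the 10 arrays, for the bright SSLP1 probe, the ACP3 probe most like it (r = 0.912) and the LOC618633 probe that shares 21 bases with it. SSLP1 and ACP3 are both highest on the 2 vehicle arrays, while LOC618633 is not.

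After ACP3, the named genes most like the bright SSLP1 probe were PTTG1IP (r = 0.901), CS, the citrate synthase of mitochondria (0.885), ACSL3, a fatty acid activating enzyme (0.859), and RESF1 (0.854). Likeness was Pearson's r over 10 arrays, which share slides and groups, among 2490 probes well above background on all arrays. Over all of these r had a median of 0.08 and a 5 to 95% range of −0.60 to 0.63. The other ACP3 probes had r of 0.81, 0.73 and −0.17, so probes of 1 gene differed as widely.

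Interferon tau RNA was detected before elongation through the probe A_73_P429736 alone. It was well above background on 9 of 10 arrays, vehicle replicate 1 being the exception. Log2 signals were −3.64 and −2.02 with vehicle, −2.27, −1.72, −2.55 and −3.49 with 30 nmol/min, and −2.30, −2.69, −2.19 and −3.37 with 300 nmol/min. The groups overlapped throughout, and the spread within each was wider than any difference between them. Replicate 4 of both senktide groups, which shared slide 3, was the lowest of its group. The processed signal was 6.38 and 30.4 with vehicle, 37.1, 30.3, 68.5 and 36.1 with 30 nmol/min, and 36.4, 21.4, 92.2 and 46.7 with 300 nmol/min.

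Group means of this IFNT3 probe were −2.83 ± 1.14 (SD, n = 2) with vehicle, −2.51 ± 0.74 (SD, n = 4) at 30 nmol/min and −2.64 ± 0.53 (SD, n = 4) at 300 nmol/min. The difference from vehicle was 0.32 (SE 0.57, 95% confidence interval −0.95 to 1.59, limma adjusted p of 0.841) at 30 nmol/min. At 300 nmol/min it was 0.19 (SE 0.57, 95% confidence interval −1.08 to 1.46, limma adjusted p of 0.892). The doses differed by −0.13 (300 minus 30 nmol/min, SE 0.46, 95% confidence interval −1.17 to 0.91, limma adjusted p of 0.999). Each interval reaches about 1 on the log2 scale or more in both directions, so equal levels were not shown.

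The sign against vehicle rested on vehicle replicate 1. Without it the differences were −0.49 and −0.62 at 30 and 300 nmol/min, and without vehicle replicate 2 they were 1.13 and 1.00. On vehicle replicate 1 the lowest log2 signal that was well above background, −2.56, was the highest of the 10 arrays. With dim signals raised to that limit on every array, the differences became −0.22 and −0.35. Within slide 1 the 30 and 300 nmol/min arrays lay 1.37 and 1.34 above the vehicle array, and within slide 2 they lay 0.30 above and −0.67 from it. The sign between the doses turned without 30 nmol/min replicate 2, to 0.13, and without 300 nmol/min replicate 4, to 0.11.

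The named genes most like this IFNT3 probe were RPL7, a ribosomal protein (r = 0.897), ACTG1, a cytoskeletal actin (0.895), PORCN, which acylates Wnt ligands (0.853), HSPA5, the chaperone of the endoplasmic reticulum (0.849), and MAP2K4, a stress kinase (0.839). Over the 2491 probes compared, r had a median of 0.03 and a 5 to 95% range of −0.54 to 0.57.

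The remaining 4 interferon tau probes were well above background on no array. The upstream IFNT3 probe A_73_P032771 had a processed signal of 2.56 to 8.35, and its log2 signal reached at most −4.33. The 2 IFN-tau-c1 probes had processed signals of 2.02 to 9.38. The probe of a transcript described as interferon tau without a symbol had 2.34 to 5.38, with 8 of 10 readings replaced by the software's surrogate for low values. Each IFN-tau-c1 probe shared a run of 20 bases or more with 7 other probes, among them IFNW1 probes of the related interferon omega, and those were on 0 arrays too. By the weaker flag A_73_P032771 was above background on 8 arrays and A_73_P429736 on 10, so the 2 IFNT3 probes differed by the stricter flag on 0 and 9 arrays and little by the weaker.

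The TKDP genes were seldom well above background. Of 160 readings of 16 probes, 3 (1.88%) were well above background, where 13.7% of all readings on the array were so. By the weaker flag 65 (40.6%) were above background, against 49.4% of all readings. Each of the 3 readings well above background came from a different gene and a different array. TKDP4 probe A_73_116051 read −2.28 on vehicle replicate 2, with a processed signal of 25.4. TKDP3 probe A_73_109525 read −3.59 on 300 nmol/min replicate 2, with 11.48, and TKDP1 probe A_73_110685 read −4.92 on 30 nmol/min replicate 4, with 13.4. No TKDP probe was well above background on 2 arrays, so none was tested and no group difference is given. By the weaker flag A_73_P388416 and A_73_109525 were above background on all 10 arrays, and A_73_110685 and A_73_P074658 on 8.

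The other TKDP readings were low. For TKDP, 95 of 160 readings (59.4%) were surrogate values, against 50.6% over the whole array. Log2 signals that were not well above background ran from −7.76 to −2.94, with processed signals of 1.88 to 14.2. By gene, TKDP1 had 1 of 30 readings well above background, TKDP2 0 of 30, TKDP3 1 of 30, TKDP4 1 of 40 and TKDP5 0 of 30. By the weaker flag these counts were 12, 12, 14, 18 and 9. The brightest probe among those never flagged was the TKDP4 probe A_73_P388416, which had no surrogate reading and a processed signal of 6.08 to 14.2. On TKDP4 probe A_73_116051, the single reading well above background stood beside 9 surrogate readings.

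The TKDP genes lie together on chromosome 13 in these files, with the probes on both strands. Of the 24 members, 15 shared a run of 20 bases or more on the same strand with at least 1 other probe, 12 of them with members alone and 3 with other genes, and 9 shared none. A probe each of TKDP3 and TKDP4 shared such a run, as did 2 probes of TKDP1 and 1 of TKDP5, so a reading of these cannot be given to 1 gene. All of them apart from the TKDP1 probe A_73_110685 were on 0 arrays.

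Of 17 genes listed as regulators of interferon tau transcription, 16 were on the array and 11 were detected on at least 1 array. So were 32.5% of the distinct names on the array and 49.9% of those with 2 or more probes. By their brightest probe, GATA2, GATA3, TFAP2C and KLF6 were well above background on all 10 arrays. Over the 10 arrays the log2 signal was −0.52 ± 0.29 (SD, n = 10) for GATA2, −1.35 ± 0.23 for GATA3, −1.42 ± 0.30 for TFAP2C and −1.64 ± 0.34 for KLF6. JUN, a part of the AP1 factor, was on 9 arrays at −3.01 ± 0.51. ETS2, the factor best known for driving interferon tau, was on 2 arrays, both at 30 nmol/min, DLX3 was on 1, and CDX2, EOMES and TEAD4 on 0; they and the other undetected genes of these lists are named after their values were seen.

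Of 10 such regulators tested, 0 were called in the limma fit in any comparison. At 30 nmol/min 5 lay above and 5 below vehicle (median −0.04), and at 300 nmol/min 3 above and 7 below (median −0.14), where all tested probes had medians of −0.11 and −0.11. JUN differed by −0.94 (SE 0.31) at both doses, with limma adjusted p of 0.329 and 0.271. GATA2 differed by 0.43 (SE 0.23) and 0.50 (SE 0.23), and TFAP2C by 0.54 (SE 0.24) and 0.39 (SE 0.24). GATA3 differed by 0.07 (SE 0.25) and −0.08 (SE 0.25), and KLF6 by −0.28 (SE 0.19) and 0.40 (SE 0.19). Between the doses KLF6 differed by 0.68 (300 minus 30 nmol/min, SE 0.15, limma adjusted p of 0.999).

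Of 16 listed genes of the receptor side of the pathway, 8 were detected on at least 1 array, as were 32.5% of the distinct names on the array and 49.9% of those with 2 or more probes. IFNAR1 and IFNAR2, the chains of the type I interferon receptor, were on 0 arrays, as were STAT2 and IRF9, which carry the receptor's signal to the nucleus. JAK1, a receptor kinase, was on 6 arrays, all from senktide groups. Its log2 signal ran from −3.81 to −3.17 over the 10 arrays. On the vehicle arrays the lowest log2 signal that was well above background was −2.56 and −4.49. The part of array sensitivity in the JAK1 count was not tested. TYK2, another receptor kinase, was at −2.39 ± 0.32 (SD, n = 10), STAT3 at −2.54 ± 0.27 and IRF7 at −2.68 ± 0.65. Each was on 9 arrays by its brightest probe, and IRF7 was on 10 by any of its probes. Of 8 tested, 0 were called; 2 lay above and 6 below vehicle at 30 nmol/min (median −0.15), and 5 above and 3 below at 300 nmol/min (median 0.16).

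Interferon-stimulated genes are the textbook targets of interferon tau. Of 28 on the array, 24 were detected on 0 arrays, as were 67.5% of the distinct names on the array and 50.1% of those with 2 or more probes. The 24 include ISG15, a ubiquitin-like modifier, MX1 and MX2, antiviral GTPases, and OAS1, which activates an RNA nuclease. IFITM3, a membrane protein that blocks virus entry, and B2M, the light chain of class I histocompatibility molecules, were on all 10, at −0.77 ± 0.25 (SD, n = 10) and −0.35 ± 0.15. ADAR was on 4 arrays and IFIT3 on 1. IFITM3 differed from vehicle by −0.04 (SE 0.23) and −0.31 (SE 0.23) and B2M by 0.09 (SE 0.20) and 0.06 (SE 0.20) at 30 and 300 nmol/min. Of 3 tested, 0 were called in the limma fit.

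Of other secreted trophoblast products and their relatives, 15 of 26 on the array were detected on at least 1 array. The share was 32.5% for the distinct names on the array and 49.9% for those with 2 or more probes. SPINT2, a Kunitz type protease inhibitor, was on all 10 arrays at 0.15 ± 0.29 (SD, n = 10). LGALS3 and LGALS1, galectins that bind surface sugars, were at 1.74 ± 0.40 and −0.72 ± 0.25. PLAU, the urokinase that activates plasminogen, was at −1.47 ± 0.63. PAG2, of the pregnancy-associated glycoproteins, was on 6 arrays by its brightest probe, none of them vehicle, and on 7 by any of its probes. PAG1 was on 1. PAG4, PAG8, PAG11 and PAG12, prolactin-related protein PRP1 and placental lactogen CSH2 were on 0. The part of low detection on the vehicle arrays in the PAG2 count was not tested.

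Of 13 such genes tested, 0 were called in the limma fit; 8 lay above and 5 below vehicle at 30 nmol/min (median 0.07), and 6 above and 7 below at 300 nmol/min (median −0.15). The smallest adjusted p belonged to PTGS2, the inducible prostaglandin synthase, with 0.185 at 30 nmol/min and 0.100 at 300 nmol/min. It was well above background on all 8 senktide arrays and on 0 of 2 vehicle arrays. Detection was low on the vehicle arrays as a whole (7.17% and 9.44% of spots), and its part in this split was not tested. SPINT2 differed from vehicle by −0.53 (SE 0.21) and −0.15 (SE 0.21), LGALS3 by 0.03 (SE 0.33) and 0.38 (SE 0.33), and PLAU by 0.40 (SE 0.54) and 0.19 (SE 0.54).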

How the data were processed

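Groups came from the sample titles. The deposited scanner files hold intensity values by spot. Per the file headers the software was Feature Extraction 11.5.1.1, while the submitters' processing notes give 10.5.1.1. In the authors' processed intensity, background was subtracted, low values carry a surrogate, and arrays were not scaled to each other. The labels' RNA protocol mentions endometrial samples, but titles and tissue fields say embryos. Flags coded 0 or 1 are as deposited. The authors' deposited series matrix holds log2 values; compared with the scanner values, they were log2 signal less the all-probe 75th percentile of the array and less the median of the probe (at least 99.96% of values on each array to within 0.01), with column medians of 0.22, 0.12, 0.045, 0.066, −0.13, −0.31, 0.16, −0.18, −0.28 and −0.23 in the order of vehicle, 30 and 300 nmol/min.

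Spots of a probe were averaged as log2 after outlier spots were left out; 0 probe spots were saturated. The 8938 probes that passed the flag on 2 or more arrays were fitted with limma 3.58.1 (R 4.3.3; lmFit, eBayes), 1 coefficient per group over all 10 arrays, with Benjamini-Hochberg adjustment over all of them. The fit was tested on simulated data. Genes were named from the files and a RefSeq table (ARS-UCD2.0, names only). For a gene of a list the probe with the highest mean was used. Alternatives were other scalings, normalizations, filters, blocks, left-out arrays and the deposited values.

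Members and lists were chosen with earlier results of these data known. Named are all members, the first 5 genes of each list whose brightest probe passed the flag on 8 or more arrays, and the 5 named genes most like the SSLP1 and IFNT3 probes; others are said to be named after their values were seen. Values of some list genes are not reported here. Deviations from group means correlated between same-numbered arrays of the 2 senktide groups at r = 0.487 to 0.575 (4 pairs). These pairs also shared a slide. Different-numbered senktide pairs on slide 3 had 0.492 and 0.545, and those between slides 1 and 2 had 0.413 and 0.417. Same-numbered pairs with vehicle had −0.198 to 0.179. Pairing by title number therefore cannot be told apart from slide, and the replicate block was run as an alternative only. The number of arrays limits the precision.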

Additional observations from a re-analysis of the deposited data

How the results depend on the processing

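With 2 vehicle arrays, 3 slides and most members at background, these data bound rather than measure most members. No member difference given above passed the threshold under any alternative run. The limma adjusted p of the bright SSLP1 probe ranged from 0.114 to 0.891 over all settings at 30 nmol/min and from 0.221 to 0.692 at 300 nmol/min, and that of the IFNT3 probe A_73_P429736 from 0.361 to 0.968 and from 0.289 to 0.985.

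The count of called probes moved as follows. At 30 nmol/min against vehicle it was 0, and 36 with normexp and quantile normalization, 107 with quantile normalization and 0 to 36 with 1 array left out. At 300 nmol/min it was 1, and 107 and 142 under those normalizations and 0 to 50 with 1 array left out. It was 0 with the 75th percentile or the median over all probes, no filter, the filter of all 10 arrays, slide as a block, the replicate block, slides 1 and 2 only, only the groups compared, the authors' deposited values, and dim signals raised to the limit (an alternative chosen after seeing the data). Between the doses it was 0, and 1 with normexp and quantile normalization, 1 with the replicate block and 0 to 0 with 1 array left out. For both doses it was 3, and 1 with the 75th percentile over all probes, 0 with the median, 178 and 223 under the normalizations, 0 with no filter, 0 with the filter of all 10 arrays, 0 with the replicate block, 0 on slides 1 and 2 only, 1 with the deposited values, 0 with dim signals raised, and 0 to 61 with 1 array left out. The cause was not tested.

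The SSLP1 difference from vehicle turned to 0.43, 0.76 and 0.60 (30 nmol/min, 300 nmol/min and both doses) with the 75th percentile over all probes, to 0.70, 1.01 and 0.85 with the median, and to 0.43, 0.76 and 0.59 with the deposited values. With 1 array left out it ranged from −0.72 to −0.53 at 30 nmol/min, −0.51 to −0.32 at 300 nmol/min and −0.61 to −0.43 for both, and the difference between doses from 0.18 to 0.28. The IFNT3 difference ranged from −0.49 to 1.13, −0.62 to 1.00, −0.55 to 1.07 and, between doses, −0.46 to 0.13; with dim signals raised it was −0.22, −0.35 and −0.28. Between the doses A_73_P070506 ranged from 0.40 to 1.29 and A_73_P035871 from −0.61 to 0.17. The replicate block gave −0.69 and −0.48 for SSLP1 and 0.65 and 0.52 for IFNT3 at 30 and 300 nmol/min; beyond the counts above it changed no call of a member.

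With the software's weaker flag for signal above background, 12, 18 and 22 of 24 members passed on at least 1 array of the vehicle, 30 and 300 nmol/min groups. These groups had 2, 4 and 4 arrays, so vehicle gave fewer chances of detection. The vehicle arrays also had low shares of spots well above background, 7.17% and 9.44%. Levels are relative to the scale chosen: means over the 10 arrays with the 75th percentile of all probes, the median of all probes, and normexp with quantile normalization were 3.70, 4.82 and 7.37 for A_73_P152311, 0.23, 1.35 and 6.12 for A_73_P070506, 0.44, 1.56 and 6.20 for A_73_P035871, and 2.09, 3.22 and 6.60 for A_73_P429736. Of the 5 genes most like SSLP1, 3 were again among the first 5 with the all-probe percentile and 0 with deviations from group means; for IFNT3 these were 2 and 3.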
